A study of Arabidopsis thaliana with 8 samples.

Results

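The 4 h response to flg22 in the smn2 mutant was described from 4 RNA-seq libraries of the 8 in the series. They were 2 libraries of smn2 seedlings treated with flg22 for 4 h and 2 of smn2 seedlings at 0 h. The WT libraries, 2 at 4 h and 2 at 0 h, entered the same fit and are given only for comparison. All groups were Arabidopsis thaliana of the Landsberg erecta strain, harvested as whole seedlings at an age of 14 days, and 0.1 µM flg22 was the treatment named for every group. No mock-treated group at 4 h was used here, so each 4 h change combines flg22 with time of day and handling. The table held 28642 loci, of which 19649 passed the low-count filter and were tested.

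Flg22 is a conserved peptide of bacterial flagellin. Plants perceive it at the cell surface through the receptor kinase FLS2, and the signal runs through cytoplasmic kinases, calcium, reactive oxygen and MAP kinases to WRKY and ERF transcription factors, which switch on defence genes while growth genes are turned down. As background, SMN2 is known as HEN2, a helicase that hands RNA over to the exosome, the decay machinery of the nucleus, and the mutant was found in work on the immune receptor RPS6. The position of the smn2 lesion is not given in the sources used here, so the transcript level of HEN2 is only a partial check of the labels.

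HEN2 (AT2G06990, chromosome 2, 2894940 to 2901078) had 11.9 and 15.1 CPM in the smn2 4 h libraries of sequencing runs 910 and 918, against 10.6 and 9.70 CPM in the smn2 0 h libraries. In WT it stood at 55.6 and 49.95 CPM after 4 h and at 34.6 and 31.96 CPM at the start. Every smn2 library lay below every WT library. Within smn2 the 4 h change of HEN2 was 0.40 ± 0.21 on the log2 scale (SE) and did not pass the test (edgeR adjusted p = 0.208). CPM are reads of a locus per 1000000 gene reads, after scaling of library sizes, and from this point the values of a pair of libraries are given in the order run 910, run 918.

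The smn2 libraries held 6856882 to 9893488 gene reads and 22531 to 23386 detected loci. Ribosomal RNA took 28.4% to 30.1% of gene reads in run 910 and 42.8% to 43.8% in run 918, so depth and ribosomal RNA content differed between the runs more than between the times. Markers of guard cells, phloem and xylem (6 tested each), epidermis (5) and root (9) were detected in the smn2 libraries, as were the meristem markers KNAT1 and STM, while WUS and CLV3 had 0 reads in all 4. PDF1, a marker of the epidermis, and the root markers PYK10 and PRP3 fell, and no other marker tested was called. None of the 3 calls was stable: PDF1 was lost without smn2 4 h run 918 (edgeR adjusted p = 0.0783), PYK10, which overlaps another locus, without 4 h run 910 (0.209), 4 h run 918 (0.0537) or 0 h run 918 (0.1), and PRP3 without 4 h run 910 (0.179), 4 h run 918 (0.197) or 0 h run 910 (0.445). The summed level of the root list was 932 and 1458 CPM at 4 h, against 2472 and 2977 CPM at 0 h, nearly all of it PYK10, and IRT1 had 0 reads in both 4 h libraries. The part of root content in the changes below was not tested, and bulk RNA cannot tell fewer cells of a type from less RNA per cell.

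The promoters of some named genes are shown first, because the W box, bound by WRKY factors, was more frequent among loci that rose than among loci that fell. These genes were picked by hand, and each holds the motif marked in it. They are examples and add nothing to the motif shares given below. Sequences are the 250 bases upstream of the gene start in RefSeq's TAIR10.1 annotation of the Columbia reference, not of Landsberg erecta, read 5′ to 3′ on the gene's strand. Capitals mark the W box (TTGAC) in FRK1, PROPEP3 and CYP71A12, which rose, the G box (CACGTG) in AT5G37990, which fell, and the I box (GATAAG) in PYD4 and TPS8, which fell. A motif on the opposite strand appears as its reverse complement. FRK1 is at chr2:8329945-8330194 (minus strand), PROPEP3 at chr5:25939312-25939561 (plus), CYP71A12 at chr2:13101372-13101621 (minus), AT5G37990 at chr5:15135170-15135419 (minus), PYD4 at chr3:2699421-2699670 (minus) and TPS8 at chr1:26474834-26475083 (minus). The deposited loci can start elsewhere than RefSeq's: all 250 bases shown for AT5G37990, its G box included, and 42 of those for CYP71A12 lie within the locus whose reads were counted.
FRK1: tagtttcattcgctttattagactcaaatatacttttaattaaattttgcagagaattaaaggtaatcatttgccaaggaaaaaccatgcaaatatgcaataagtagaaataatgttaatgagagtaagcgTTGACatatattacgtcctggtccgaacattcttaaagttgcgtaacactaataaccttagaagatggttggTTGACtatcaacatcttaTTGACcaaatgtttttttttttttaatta
PROPEP3: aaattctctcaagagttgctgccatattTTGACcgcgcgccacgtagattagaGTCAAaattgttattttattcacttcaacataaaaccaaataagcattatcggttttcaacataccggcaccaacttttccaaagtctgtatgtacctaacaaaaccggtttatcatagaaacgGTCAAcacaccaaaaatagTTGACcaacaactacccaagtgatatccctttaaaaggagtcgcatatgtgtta
CYP71A12: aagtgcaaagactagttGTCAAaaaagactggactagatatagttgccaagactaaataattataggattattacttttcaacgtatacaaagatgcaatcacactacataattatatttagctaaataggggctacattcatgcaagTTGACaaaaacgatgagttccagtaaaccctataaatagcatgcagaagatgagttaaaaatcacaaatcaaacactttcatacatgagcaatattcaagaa
AT5G37990: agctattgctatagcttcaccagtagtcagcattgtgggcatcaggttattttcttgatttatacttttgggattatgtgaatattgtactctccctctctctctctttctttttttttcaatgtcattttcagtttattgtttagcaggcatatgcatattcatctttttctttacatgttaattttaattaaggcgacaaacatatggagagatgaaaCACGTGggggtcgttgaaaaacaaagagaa
PYD4: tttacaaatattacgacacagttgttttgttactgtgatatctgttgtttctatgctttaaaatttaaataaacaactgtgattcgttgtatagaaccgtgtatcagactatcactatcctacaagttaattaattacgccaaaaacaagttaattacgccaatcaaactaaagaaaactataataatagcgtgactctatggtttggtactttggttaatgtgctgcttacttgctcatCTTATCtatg
TPS8: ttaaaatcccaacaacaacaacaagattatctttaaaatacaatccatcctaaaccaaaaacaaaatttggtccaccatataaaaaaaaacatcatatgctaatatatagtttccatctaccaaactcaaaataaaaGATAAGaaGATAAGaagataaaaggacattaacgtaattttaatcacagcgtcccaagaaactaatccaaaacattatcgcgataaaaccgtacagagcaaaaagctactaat

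Motifs were counted on both strands over 300 bases, 250 before to 50 after each start, for the 19501 tested loci with a RefSeq promoter. At least 1 W box stood in 62.5% of the 2468 promoters of loci that rose, 46.9% of the 1739 promoters of loci that fell and 51.3% of all promoters. Promoters with 2 or more W boxes made up 28.8% of those that rose, 16.0% of those that fell and 18.4% of all. The GCC box (GCCGCC), bound by ERF factors, was in 4.29% of promoters of loci that rose, 1.27% of those that fell and 2.73% of all. In the other direction, the G box was in 6.69% of promoters of loci that rose, 12.9% of those that fell and 8.65% of all, and the I box, found in promoters of light-regulated genes, in 13.5%, 19.2% and 14.7%, in the same order. The core of the evening element (AATATCT), bound by clock factors, differed less, at 12.5%, 10.8% and 11.6%. None of these motifs contains another. A match is a stretch of letters and does not show that a factor binds there.

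**Figure D1:**
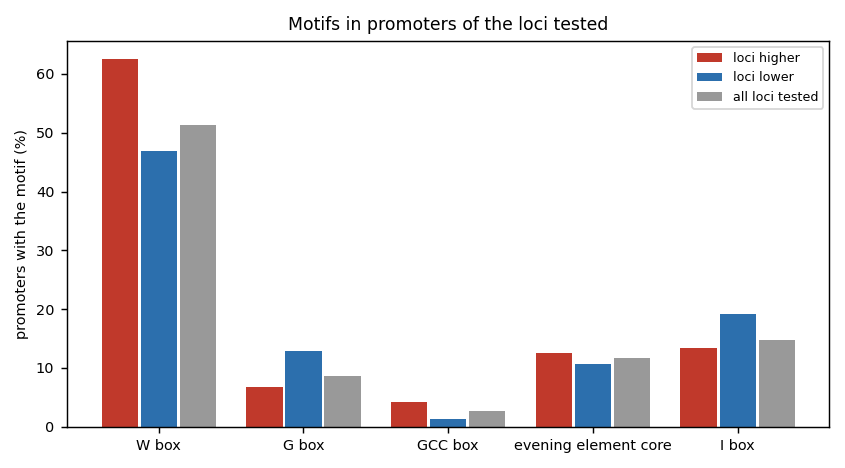
Share of promoters (percent, y axis) that hold each motif at least once, for loci higher at 4 h in smn2 (2468 promoters), loci lower (1739) and all loci tested (19501). The W box stood in 62.5% of promoters of higher loci and 46.9% of those of lower loci, and the G box in 6.69% and 12.9%.

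At 4 h, 2479 loci were higher than at 0 h in smn2 (12.6% of those tested) and 1745 were lower (8.88%), by edgeR's quasi-likelihood test with Benjamini-Hochberg adjusted p below 0.05. At least 2-fold changes were seen at 1888 of the higher and 1288 of the lower loci. The median log2 change was 1.47 for loci that rose and -1.30 for loci that fell, against -0.04 for all loci tested. Of these calls, 1179 higher (6.0% of loci tested) and 382 lower (1.94%) held in all 7 fits made to test them, namely the fit itself, the 4 fits that each leave out 1 smn2 library, a fit with the sequencing run as a block and DESeq2. These are called stable calls below. Counts of list members called, in every paragraph below, stand against 12.6% of all loci tested called higher and 8.88% called lower. The fit with the run as a block alone gave 2871 loci higher and 2221 lower, more than the fit without it. Without smn2 4 h run 910 the counts were 1467 higher and 726 lower, and without smn2 4 h run 918 they were 1516 and 601.

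Among the 12 largest stable increases, FRK1 was first. FRK1 (AT2G19190, chromosome 2, 8326049 to 8329944), a receptor kinase gene used as a marker of flg22 signalling, had 335 and 154 CPM in the smn2 4 h libraries, against 0.419 and 0.303 CPM in the smn2 0 h libraries. The 0 h values rest on 5 and 2 reads. Its log2 change was 9.30 ± 0.55 (SE, edgeR adjusted p = 2.55e-05), and 8.63 without smn2 4 h run 910. PROPEP3, the precursor of a danger peptide released from damaged cells, had 89.1 and 87.3 CPM at 4 h, against 0.586 and 0.455 CPM at 0 h, a log2 change of 7.33 ± 0.31 (edgeR adjusted p = 1.5e-05). AT1G26380, a berberine bridge enzyme gene of the 4-hydroxyindole-3-carbonyl nitrile route, had 380 and 369 CPM at 4 h, against 1.76 and 2.27 CPM at 0 h, a log2 change of 7.56 ± 0.40 (edgeR adjusted p = 2.45e-05). The 4 h libraries lay far above the 0 h libraries at each of these genes, and the paired libraries agreed most closely at AT1G26380 and PROPEP3.

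MLO12, a membrane protein gene of powdery mildew susceptibility, had 676 and 367 CPM at 4 h, against 4.69 and 4.39 CPM at 0 h (log2 change 6.84 ± 0.42). PP2-A5, a phloem lectin family gene, had 64.5 and 45.1 CPM at 4 h, against 0.335 and 0.303 CPM at 0 h (7.35 ± 0.37). DIN11, first found as a gene induced by darkness, had 187 and 94.96 CPM at 4 h, against 0.167 and 1.52 CPM at 0 h (7.66 ± 0.77). Its size turned on the 0 h libraries, which differed: it was 6.53 without smn2 0 h run 910 and 9.62 without smn2 0 h run 918. AT5G40590, a C1 domain gene, did likewise, with a log2 change of 7.08, 9.33 without smn2 0 h run 910 and 6.38 without run 918. The other 5 of the 12 were AT2G17740 (8.56, and 7.97 without smn2 4 h run 910), AT5G61890 (7.04), AT2G43620 (7.03, with 6.41 and 7.76 without smn2 0 h runs 910 and 918), AT4G22470 (6.82) and AT2G44370 (6.72).

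Of the loci that rose, 15 had 0 reads in both smn2 0 h libraries, so only a lower bound of the fold can be given, set by a floor of 3 counts over the group. ELI3-2, a cinnamyl alcohol dehydrogenase gene, had 8.57 and 16.9 CPM at 4 h and was at least 73.6-fold higher. CCOAMT, a methyltransferase gene of phenylpropanoid synthesis, had 14.3 and 10.7 CPM at 4 h and was at least 79.6-fold higher. The other 3 of the 5 most abundant were AT3G18250 (at least 37.8-fold higher; it overlaps another locus), CYP82C3 (at least 28.5-fold) and the peroxidase gene AT3G03670 (at least 29.8-fold). At AT3G03670 the libraries were far apart, with 6.94 and 1.62 CPM at 4 h.

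The 12 largest stable decreases were led by AT3G27250, with 0.326 and 0.325 CPM at 4 h, against 8.45 and 13.5 CPM at 0 h, a log2 change of -5.01 ± 0.54 (edgeR adjusted p = 0.00032). BXL1 (AT5G49360), a cell wall xylosidase and arabinosidase gene, had 9.33 and 6.01 CPM at 4 h, against 138 and 215 CPM at 0 h (-4.50 ± 0.47). ICS2, the minor isochorismate synthase, had 1.95 and 1.46 CPM at 4 h, against 21.9 and 29.2 CPM at 0 h (-3.87 ± 0.41). None of these groups overlapped. CYP71B12 fell by 4.10 on the log2 scale (-4.75 without smn2 4 h run 910), AT1G34060, an alliinase family gene, by 4.08, AT3G09510 by 3.599 and PYD4, named for pyrimidine breakdown, by 3.59 (-2.90 without smn2 0 h run 910). AT2G20670 changed by -4.45, and by -5.73, -3.86 and -3.67 without smn2 4 h run 910, 4 h run 918 and 0 h run 918. AT2G32880, a TRAF-like gene, changed by -3.85 (-5.16 without smn2 4 h run 910) and AT5G37990 by -3.83 (-4.93 without smn2 4 h run 910 and -3.08 without 0 h run 910). The remaining 2, THAS1 and CYP705A5, belong to 1 metabolic gene cluster described at the end.

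With 0 reads in both smn2 4 h libraries, 7 loci were called lower. NADP-ME1, a malic enzyme gene, had 2.01 and 1.97 CPM at 0 h and was at least 10.2-fold lower at 4 h. AT2G06002 was at least 6.63-fold lower. AT5G04120 was not called with the block (edgeR adjusted p = 0.0508). For CYP705A12 (at least 11.3-fold lower), LEA7 (at least 8.01-fold lower; it overlaps another locus) and AT5G04120 (at least 8.57-fold lower), the call was lost without 1 library: the edgeR adjusted p was 0.112, 0.0767 and 0.181 without smn2 4 h run 910 and 0.0805, 0.0532 and 0.136 without 4 h run 918. At CYP705A12 and AT5G04120 it was 0.0645 and 0.372 without smn2 0 h run 910. AT5G04120 had 30 and 1 reads at 0 h, and its log2 change was -6.89, with -3.67 without smn2 0 h run 910.

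**Figure D2:**
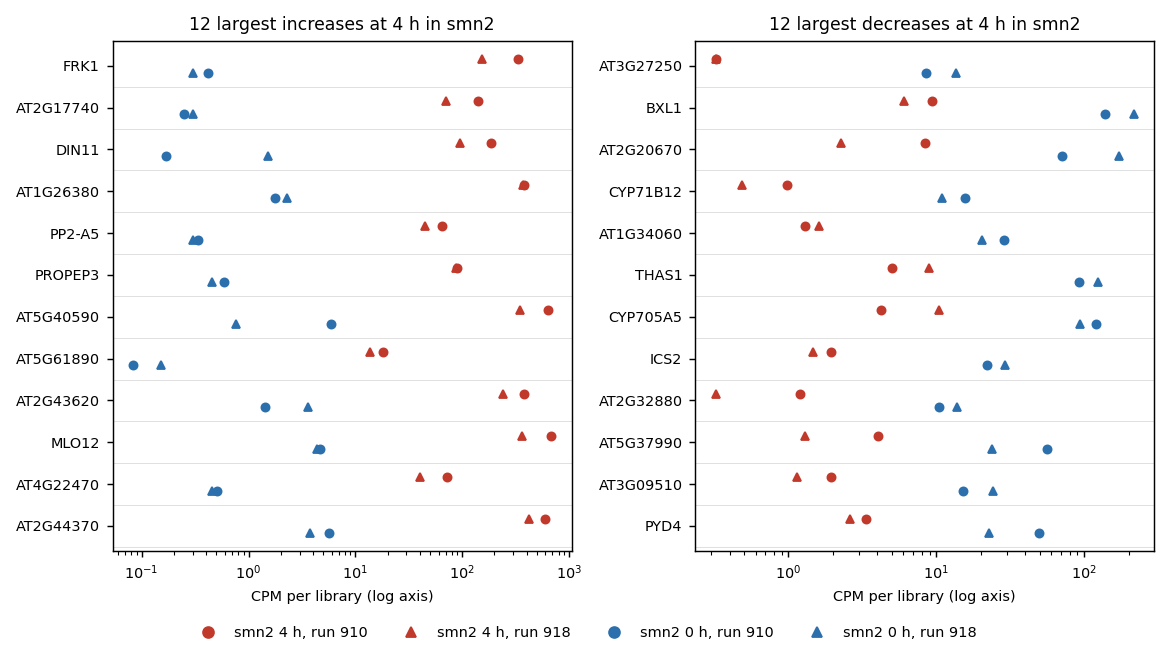
CPM in each smn2 library (x axis, log scale) of the 12 largest stable increases (left) and decreases (right), with red for 4 h, blue for 0 h, circles for run 910 and triangles for run 918. At every gene shown the 4 h and 0 h libraries are separated, which the choice of large stable changes favours. FRK1 stood at 335 and 154 CPM against 0.419 and 0.303 CPM.

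Of 7 PROPEP precursors, 6 were tested and 2 rose, against 12.6% of all loci, with a list median of 0.35. PROPEP2 (log2 change 7.17, with 5.88 and 9.66 without smn2 0 h runs 910 and 918) rose on 156 reads at 4 h against 1 read at 0 h, a ratio of 188 with a 95% counting interval of 33.3 to 7479, and PROPEP1, with 3.47 and 6.49 CPM at 4 h against 3.43 and 3.03 CPM at 0 h, was not called. Of the pattern receptors and co-receptors, 14 of 22 rose (9 stable) and 1 fell, with a median log2 change of 1.15. Without smn2 4 h run 910, 9 rose. FLS2 itself had 224 and 177 CPM at 4 h, against 33.9 and 51.7 CPM at 0 h (2.23 ± 0.27, edgeR adjusted p = 0.000583). EFR, the receptor of bacterial elongation factor Tu, had 14.5 and 12.8 CPM at 4 h, against 2.09 and 2.27 CPM at 0 h (2.65 ± 0.36). BIK1, the cytoplasmic kinase that carries the FLS2 signal, had 51.8 and 37.0 CPM at 4 h, against 9.96 and 8.33 CPM at 0 h (2.27 ± 0.30), and the lectin kinase SD1-29 rose by 2.74 (2.12 without smn2 4 h run 910). The PROPEP receptors PEPR1 and PEPR2 rose by 1.16 and 0.99, but lost their calls without smn2 4 h run 910 (edgeR adjusted p 0.0888 and 0.0849), 4 h run 918 (0.0637 and 0.16) or 0 h run 910 (0.0958 and 0.184), and PEPR2 overlaps another locus and was not called by DESeq2 (adjusted p = 0.0664). The member that fell, AT1G27190, a kinase of the BIR family, changed by -0.86, and lost its call without any 1 smn2 library (edgeR adjusted p 0.052 to 0.114).

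Among cysteine-rich receptor-like kinases, 17 of 34 tested rose (10 stable) and 0 fell, with a median of 1.42, and 10 rose without smn2 4 h run 910. CRK29 had 222 and 149 CPM at 4 h, against 21.3 and 20.003 CPM at 0 h (3.167 ± 0.27). CRK18, CRK28 and CRK11 rose by 2.76, 2.67 and 2.44. Of the 5 wall-associated kinases, which bind pectin, 3 rose. WAK1 had 66.3 and 77.1 CPM at 4 h, against 24.4 and 13.3 CPM at 0 h (1.91 ± 0.29), and WAK5 had 14.1 and 22.6 CPM at 4 h, against 0.419 and 0 CPM at 0 h (6.05 ± 0.57, with 10.47 and 5.40 without smn2 0 h runs 910 and 918). WAK3, with 3.04 and 0.487 CPM at 4 h and 0 reads at 0 h, lost its call without smn2 4 h run 910 (edgeR adjusted p = 0.109) or 0 h run 910 (0.0662). Receptor-like proteins, which lack a kinase domain, moved less as a list: 11 of 43 tested rose (5 stable), 2 fell and the median was 0.20, with 6 higher without smn2 4 h run 910 and 7 without 4 h run 918. RLP53, with 29.2 and 39.8 CPM at 4 h against 2.01 and 1.21 CPM at 0 h, changed most (4.35 ± 0.32), and 86% of its reads were uniquely placed. RLP2 and RLP47 changed by -1.61 and -1.36. RLP2 lost its call without smn2 4 h run 910 (edgeR adjusted p = 0.121) or 0 h run 918 (0.0657), and RLP47 without any 1 smn2 library (0.0508 to 0.115).

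Among signalling genes downstream of the receptors, of 18 calcium and oxidative burst genes, 7 rose (4 stable) and 0 fell, with a median of 0.41, and 4 rose without smn2 4 h run 910, 4 h run 918 or 0 h run 910. The peroxidase gene PRX71 had 598 and 373 CPM at 4 h, against 8.20 and 6.67 CPM at 0 h (6.02 ± 0.38), and the calcium pump gene ACA12 had 449 and 350 CPM at 4 h, against 9.63 and 11.7 CPM at 0 h (5.24 ± 0.30). RBOHD, the NADPH oxidase of the oxidative burst, had 397 and 444 CPM at 4 h, against 106 and 143 CPM at 0 h (1.76 ± 0.29). Both groups of libraries were well apart at all 3 genes. Calmodulin-like genes gave 4 of 7 higher, with a median of 1.40, of which only CML42 (3.68 ± 0.21) was stable, and 1, 2 and 1 were higher without smn2 4 h run 910, 4 h run 918 and 0 h run 910. Of 19 MAP kinase and phosphatase genes 5 rose, with a median of 0.43. They included MPK4, at 70.3 and 51.5 CPM at 4 h against 21.9 and 16.4 CPM at 0 h (1.66 ± 0.26), and the count was 2 without smn2 4 h run 910 and 3 without each other smn2 library.

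Of 54 WRKY factors tested, 29 rose (17 stable) and 0 fell, with a median log2 change of 1.203, and 19 rose without smn2 4 h run 910. WRKY72 had 72.3 and 68.5 CPM at 4 h, against 6.03 and 7.12 CPM at 0 h (3.43 ± 0.20, edgeR adjusted p = 2.55e-05). WRKY22 and WRKY29, known as factors downstream of the flg22 MAP kinase cascade, had 32.7 and 24.3 CPM and 13.6 and 9.25 CPM at 4 h, against 2.26 and 3.94 CPM and 1.34 and 0.455 CPM at 0 h. WRKY40 rose by 4.20 ± 0.40 and overlaps another locus. WRKY33, the regulator of camalexin synthesis, had 213 and 215 CPM at 4 h, against 50.8 and 85.3 CPM at 0 h (1.66 ± 0.34), and overlaps another locus. WRKY70 and WRKY46, linked to salicylic acid, were not called, at 0.26 ± 0.35 and 1.59 ± 0.57. Of 18 ERF factors tested, 6 rose (3 stable) and 0 fell, with ORA59 at 42.4 and 38.6 CPM at 4 h against 5.61 and 7.27 CPM at 0 h (2.67 ± 0.22), and ERF73 and ERF-1 higher by 2.63 and 2.598 (ERF-1 by 3.19 without smn2 0 h run 918).

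U-box ubiquitin ligases split in direction, with 6 of 20 tested higher (3 stable) and 4 lower (2 stable), against 12.6% and 8.88% of all loci. The 3 stable increases were PUB22, PUB23 and PUB24, which act together to dampen pattern-triggered signalling. PUB22 had 161 and 116 CPM at 4 h, against 4.77 and 6.67 CPM at 0 h (4.62 ± 0.32), and PUB23 and PUB24 rose by 3.66 and 3.41. PUB9 and PUB19 fell, with PUB9 at 17.6 and 23.7 CPM at 4 h against 59.7 and 83.0 CPM at 0 h (-1.79 ± 0.23) and PUB19 at -2.79 ± 0.51. The other 2 lower members, PUB26 and PUB8, lost their calls with DESeq2, and in edgeR PUB26 also without smn2 4 h run 910 (adjusted p = 0.0927), 4 h run 918 (0.21) or 0 h run 918 (0.217) and PUB8 without any 1 smn2 library (0.107 to 0.158). Without smn2 4 h run 910, 4 h run 918 or 0 h run 910, 3 members were higher, and without smn2 4 h run 910, 4 h run 918 or 0 h run 918, 2 were lower.

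Of 22 ethylene genes tested 12 rose (7 stable) and 2 fell, with a median of 0.79, and 7 rose without smn2 0 h run 910. ACS6 and ACS7, enzymes of the committed step of ethylene synthesis, had 97.9 and 85.4 CPM and 9.01 and 8.60 CPM at 4 h, against 15.4 and 31.7 CPM and 1.34 and 1.97 CPM at 0 h. The ACC oxidase gene ACO1 rose by 1.79. ACS11 fell by 2.37 and the signalling gene EIN2 by 0.65, but ACS11 lost its call without smn2 4 h run 910 (edgeR adjusted p = 0.0613) and EIN2 without any 1 smn2 library (0.088 to 0.222).

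Among salicylic acid genes, ICS1, the enzyme that makes most pathogen-induced salicylic acid, had 20.08 and 6.98 CPM at 4 h, against 9.54 and 6.06 CPM at 0 h, and was not called (0.79 ± 0.54, edgeR adjusted p = 0.329). Its groups overlapped. EDS5, the exporter of its product, had 26.8 and 24.8 CPM at 4 h, against 5.86 and 5.46 CPM at 0 h (2.18 ± 0.26), and overlaps another locus, and PBS3, which conjugates the product, had 13.9 and 6.82 CPM at 4 h, against 2.01 and 1.06 CPM at 0 h (2.69 ± 0.60). PBS3 changed by 2.08 without smn2 4 h run 910, where its call was lost (edgeR adjusted p = 0.0964), and by 3.29 without 0 h run 910. In all, 3 of 10 genes of synthesis and the EDS1 node rose (2 stable), and 5 without smn2 0 h run 918. The response list gave 7 of 18 higher (3 stable) and 1 lower, with 4 higher without smn2 4 h run 910 or 4 h run 918. GRX480, a glutaredoxin gene, rose by 3.07 ± 0.48, UGT76B1, whose enzyme adds glucose to immune regulators, by 2.34 ± 0.33 and NIMIN2 by 2.83 ± 0.53 (4.05 without smn2 0 h run 910). PR2 and PR5 were called higher, at 34.6 and 17.7 CPM and 3.36 and 5.52 CPM at 4 h, against 5.69 and 5.61 CPM and 0.251 and 1.06 CPM at 0 h. PR2 lost its call without smn2 4 h run 910 (edgeR adjusted p = 0.105) or 0 h run 910 (0.0531), and PR5 without 4 h run 918 (0.0689) or 0 h run 910 (0.0728). The change of PR5 was 2.92 on the log2 scale, with 2.03 and 4.06 without 0 h runs 910 and 918. PR1 had 24.5 and 2.76 CPM at 4 h, against 1.51 and 0 CPM at 0 h, with run 910 the higher at both times, and was called only with the run as a block (edgeR adjusted p = 0.0878, and 0.0202 with the block). The 1 lower member, DMR6, which breaks down salicylic acid, changed by -1.04 and lost its call without smn2 4 h run 910 (0.0511), 4 h run 918 (0.169) or 0 h run 910 (0.178).

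Of 16 jasmonate synthesis and catabolism genes tested 5 rose (4 stable), with a median of 0.74. The lipoxygenase genes LOX4 and LOX3 had 57.2 and 54.5 CPM and 16.7 and 22.1 CPM at 4 h, against 6.28 and 12.9 CPM and 4.60 and 4.39 CPM at 0 h, and CYP94C1 and ILL6, which inactivate the hormone, rose by 3.22 (2.598 without smn2 4 h run 910) and 1.86. Of 11 JAZ repressors tested 4 rose (3 stable) and 1 fell, with JAZ1 at 92.0 and 62.2 CPM at 4 h against 7.45 and 8.94 CPM at 0 h (3.24 ± 0.29). JAZ12, which overlaps another locus, changed by -0.95 and lost its call without smn2 4 h run 910 (edgeR adjusted p = 0.0974), 4 h run 918 (0.0926) or 0 h run 918 (0.0692). Of 11 output genes tested 2 rose, which is near the share of all loci called higher (12.6%). They were NATA1 (4.21 ± 0.83) and TAT3 (3.23 ± 0.77), and TAT3 lost its call without smn2 4 h run 910 or 0 h run 910. The storage protein genes VSP1 and VSP2 and the defensin gene PDF1.2 were not called, apart from VSP2 with the block (edgeR adjusted p = 0.057, and 0.0421 with the block) and with DESeq2 (0.0239).

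**Figure D3:**
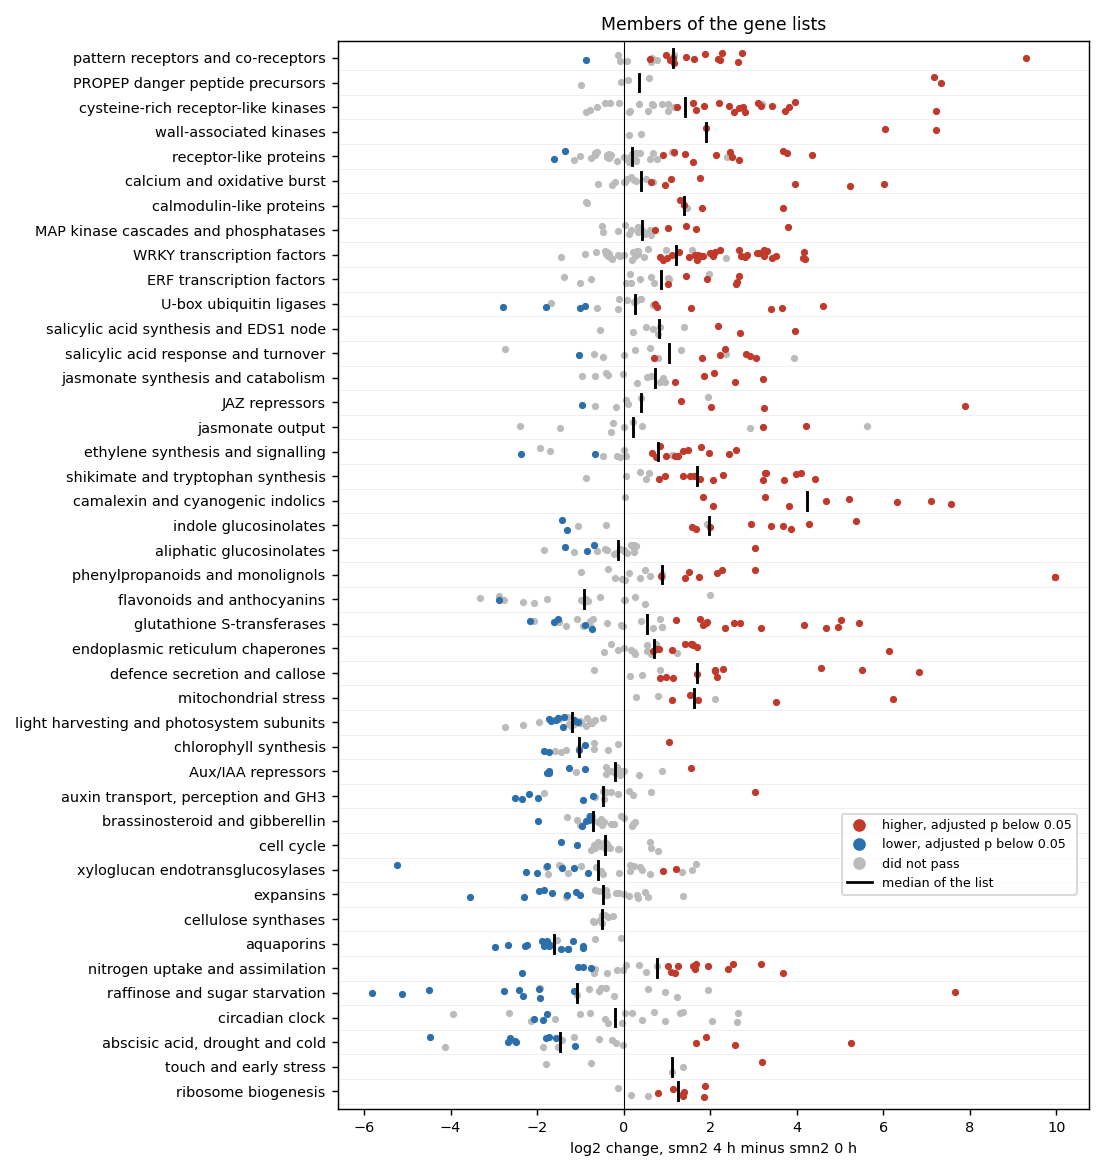
Log2 change, smn2 4 h minus smn2 0 h (x axis), of every tested member of each gene list (rows), in red where higher and blue where lower at adjusted p below 0.05, in grey where the test was not passed, with black bars for list medians. Camalexin genes have the highest median (4.25) and aquaporins the lowest (-1.61), against -0.04 for all loci tested.

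Genes of tryptophan synthesis and of the indole defence compounds made from it rose together. Of 20 shikimate and tryptophan genes 15 rose (11 stable) and 0 fell, with a median of 1.69. DHS1, the entry to the shikimate route, had 473 and 399 CPM at 4 h, against 39.5 and 54.3 CPM at 0 h (3.22 ± 0.37). At the branch to tryptophan, the anthranilate synthase gene ASA1 had 554 and 383 CPM at 4 h, against 24.5 and 35.2 CPM at 0 h (3.98 ± 0.38), and the last step, TSA1, had 1184 and 989 CPM at 4 h, against 40.4 and 61.2 CPM at 0 h (4.42 ± 0.37, edgeR adjusted p = 8.98e-05). TSB1, its partner subunit, rose by 3.29 ± 0.46 (3.91 without smn2 0 h run 918) and TRP1 by 3.27 ± 0.33. ASB1 rose by 4.09 and AT2G04400 by 3.70, but TRP1, ASB1 and AT2G04400 overlap other loci and 74% of reads at ASB1 were uniquely placed.

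Of 10 camalexin and cyanogenic indolic genes tested 9 rose, all 9 stable, with a median of 4.25. CYP79B2, which converts tryptophan to its oxime, had 442 and 344 CPM at 4 h, against 25.6 and 29.9 CPM at 0 h (3.83 ± 0.42). CYP71A12 and CYP71A13 act next: CYP71A12 had 451 and 502 CPM at 4 h, against 7.95 and 3.64 CPM at 0 h (6.32 ± 0.62, and 7.03 without smn2 0 h run 910), and CYP71A13 rose by 3.26 ± 0.64 (2.44 and 4.58 without smn2 0 h runs 910 and 918). CYP71B15, or PAD3, the last step to camalexin, had 386 and 262 CPM at 4 h, against 3.68 and 14.4 CPM at 0 h (5.22 ± 0.57, with 4.49 and 6.45 without smn2 0 h runs 910 and 918). The glutathione transferase GSTF6 had 1144 and 1043 CPM at 4 h, against 37.1 and 48.9 CPM at 0 h (4.67 ± 0.38). CYP82C2, which hydroxylates the carbonyl nitrile, had 32.2 and 48.9 CPM at 4 h, against 0 and 0.758 CPM at 0 h.

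Indole glucosinolates, the sulphur-rich indole compounds needed for callose deposition after flg22, gave 9 of 14 genes higher (8 stable) and 2 lower, with a median of 1.97. CYP81F2, which makes the methoxylated form, had 229 and 261 CPM at 4 h, against 2.93 and 9.40 CPM at 0 h (5.38 ± 0.60, with 4.70 and 6.38 without smn2 0 h runs 910 and 918). MYB51, the regulator of the route, had 168 and 145 CPM at 4 h, against 8.96 and 15.9 CPM at 0 h (3.67 ± 0.43), and IGMT1 and CYP83B1 rose by 3.88 and 3.41. The myrosinase gene PEN2 had 474 and 421 CPM at 4 h, against 99.6 and 181 CPM at 0 h (1.68 ± 0.35), and lost its call without smn2 4 h run 910 (edgeR adjusted p = 0.0518). MYB34, a regulator of the same route, changed by -1.43, and IGMT5, which overlaps another locus, by -1.32. MYB34 lost its call without smn2 4 h run 910, 4 h run 918 or 0 h run 910 (edgeR adjusted p 0.118 to 0.164), and IGMT5 without smn2 4 h run 910 (0.138) or 0 h run 918 (0.0983).

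Aliphatic glucosinolates, made from methionine, did not rise as a list, where 12.6% of all loci tested were higher and 8.88% lower. Of 20 tested 1 rose, the sulphotransferase gene SOT17, with 143 and 130 CPM at 4 h against 15.7 and 17.9 CPM at 0 h (3.03 ± 0.34). The 3 lower members were the chain elongation genes BCAT4 (-1.36), MAM1 (-0.85) and IMD1 (-0.69), and none was stable: 0 were lower without smn2 4 h run 910 and 1 without smn2 0 h run 918. The list median was -0.13 in smn2, while WT had 7 higher and 0 lower with a median of 0.63. The difference of the 4 h changes between smn2 and WT had an unadjusted edgeR p below 0.05 at 11 of the 20 members, against 4.31% of all loci, and passed the adjusted threshold at 0. BCAT4 and IMD1 overlap other loci. BCAT4 lost its call without smn2 4 h run 910 (edgeR adjusted p = 0.0763), and MAM1 (0.0515 to 0.266) and IMD1 (0.0508 to 0.155) without any 1 smn2 library. IMD1 was not called by DESeq2 (adjusted p = 0.0609).

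**Figure D4:**
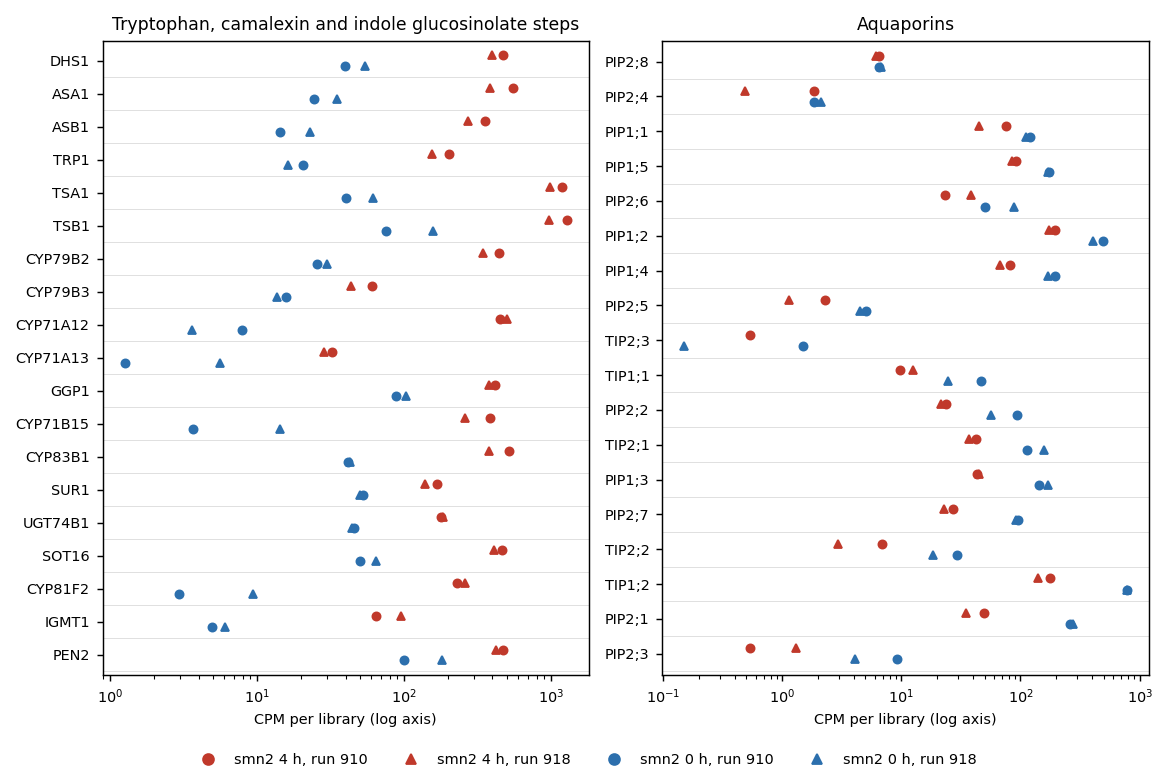
CPM in each smn2 library (x axis, log scale) for steps of tryptophan, camalexin and indole glucosinolate synthesis (left) and for aquaporins (right), with red for 4 h, blue for 0 h, circles for run 910 and triangles for run 918. TSA1 stood at 1184 and 989 CPM at 4 h against 40.4 and 61.2 CPM at 0 h, and PIP2;1 at 49.3 and 34.7 CPM against 258 and 276 CPM. TIP2;3 had 0 reads at 4 h in run 918 and so has no point there on the log axis.

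Other branches of aromatic metabolism moved unevenly. Of 20 phenylpropanoid and monolignol genes 9 rose (7 stable) and 0 fell, with a median of 0.88. PAL1 and PAL2, the entry to the route, had 521 and 476 CPM and 414 and 512 CPM at 4 h, against 110 and 95.8 CPM and 109 and 96.7 CPM at 0 h. C4H, the next step, rose by 1.75 ± 0.25 and CCR2, a reductase towards lignin, by 3.03 ± 0.37. Flavonoid genes did not follow: of 17 tested 0 rose and 1 fell, with a median of -0.91. Of all loci tested, 12.6% were higher and 8.88% lower, so the 1 lower gene is no more than that share. The 1 lower gene was the anthocyanin regulator MYB75, which had 2.17 and 1.299 CPM at 4 h, against 17.8 and 8.18 CPM at 0 h (-2.88 ± 0.68), and lost its call without smn2 4 h run 910 (edgeR adjusted p = 0.0752), 4 h run 918 (0.106) or 0 h run 910 (0.0745). DESeq2 called 2 lower and 1 higher. With the run as a block 4 were lower, and 7 were lower without smn2 0 h run 918 and 0 without each other smn2 library. Chalcone synthase (TT4) had 30.7 and 34.4 CPM at 4 h, against 95.3 and 23.5 CPM at 0 h, so its groups overlapped.

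Glutathione S-transferases, which detoxify and conjugate, gave 14 of 36 tested higher (13 stable) and 5 lower (1 stable), with a median of 0.54. Of all loci, 12.6% were higher and 8.88% lower. GSTU12 had 38.4 and 57.9 CPM at 4 h, against 0.921 and 1.36 CPM at 0 h (5.44 ± 0.53), and GSTF7 had 565 and 475 CPM at 4 h, against 13.3 and 20.6 CPM at 0 h (4.95 ± 0.43). GSTU11 changed by 4.18, and by 2.94 and 7.20 without smn2 0 h runs 910 and 918. The stable decrease was GSTU5, at 15.7 and 23.5 CPM at 4 h against 51.5 and 61.1 CPM at 0 h (-1.53 ± 0.24), and 3 members were lower without smn2 4 h run 910 or 4 h run 918. Of 8 genes of mitochondrial stress 5 rose (3 stable), and 3 without smn2 4 h run 910. The alternative oxidase gene AOX1D had 54.0 and 30.5 CPM at 4 h, against 0.335 and 0.909 CPM at 0 h (6.23 ± 0.47, with 5.53 and 6.94 without smn2 0 h runs 910 and 918). AOX1A, the family member usually named as the stress marker, had 99.6 and 54.1 CPM at 4 h, against 30.7 and 58.5 CPM at 0 h, and was not called.

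Of 15 genes of defence secretion and callose 11 rose (7 stable) and 0 fell, with a median of 1.69, and 7 rose without smn2 4 h run 918. PEN3, a transporter that delivers defence compounds to the cell surface, had 4722 and 4836 CPM at 4 h, against 694 and 1524 CPM at 0 h (2.11 ± 0.48, edgeR adjusted p = 0.0129). Its call was lost without smn2 4 h run 910 (0.0537), 4 h run 918 (0.0587) or 0 h run 910 (0.059), and its change was 2.78 without 0 h run 918. FLOT1, a membrane microdomain protein gene, had 434 and 386 CPM at 4 h, against 16.1 and 18.8 CPM at 0 h (4.56 ± 0.27). The fusion machinery genes SYP122 and SNAP33 rose by 2.12 and 1.69, the exocyst gene EXO70B2 by 2.29 and the callose synthase gene PMR4 by 0.98. SNAP33 overlaps another locus, and PMR4 lost its call without smn2 4 h run 918 (edgeR adjusted p = 0.0562). Of 22 chaperone genes of the endoplasmic reticulum 10 rose (6 stable), with a median of 0.71, and 6 rose without smn2 4 h run 910 or 0 h run 918. BIP3 had 76.6 and 46.4 CPM at 4 h, against 0.837 and 0.909 CPM at 0 h (6.13 ± 0.95), and bZIP60, the factor that controls such genes, had 58.4 and 50.3 CPM at 4 h, against 13.6 and 22.3 CPM at 0 h (1.61 ± 0.29). BIP1 and BIP2, near-identical copies with 79% and 80% of reads uniquely placed, rose by 1.69 and 1.59.

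Photosynthesis genes had low medians but few stable calls. Of 34 light harvesting and photosystem genes 0 rose and 9 fell, with a median of -1.18, and 1 was stable. DESeq2 called 22 lower, against 8.22% of all loci, and the fit with the run as a block 24, while 5, 1 and 3 were lower without smn2 4 h run 910, 4 h run 918 and 0 h run 918. The stable one was PSBO2, of the oxygen-evolving complex, with 107 and 49.2 CPM at 4 h, against 234 and 284 CPM at 0 h (-1.73 ± 0.34, and -2.40 without smn2 4 h run 910). LHCB2.2, an antenna gene that was not called, had 1308 and 175.1 CPM at 4 h against 3200.4 and 2576 CPM at 0 h. Both 4 h libraries of LHCB2.2 were below both 0 h libraries, but they differed from each other. The 4 h libraries were closer for the summed light harvesting and photosystem list, at 13429 and 7467 CPM, against 23369 and 29217 CPM at 0 h. Of 13 chlorophyll synthesis genes 4 fell and 1 rose, with a median of -1.02 and none stable. The block gave 7 lower, and 0 and 2 were lower without smn2 4 h run 918 and 0 h run 918. HEMA1, the first enzyme, had 95.4 and 44.0 CPM at 4 h, against 251 and 250 CPM at 0 h, and GSA1, of the next step, was the one that rose (91.9 and 107 CPM at 4 h against 42.9 and 52.9 CPM at 0 h). HEMA1 and GSA1 lost their calls without smn2 4 h run 918 (edgeR adjusted p 0.147 and 0.0525), and HEMA1 was at -2.51 without 4 h run 910.

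Aquaporins had the lowest median of the 50 lists. Of 18 tested 15 fell (6 stable), against 8.88% of all loci, 0 rose and the median was -1.61. Without smn2 4 h run 910 and 4 h run 918, 8 and 7 fell. PIP2;1, a plasma membrane water channel, had 49.3 and 34.7 CPM at 4 h, against 258 and 276 CPM at 0 h (-2.67 ± 0.30, edgeR adjusted p = 0.000367). TIP1;2, of the vacuole membrane, had 177 and 142 CPM at 4 h, against 779 and 777 CPM at 0 h (-2.29 ± 0.30). TIP2;2 changed by -2.23 (-3.02 without smn2 4 h run 910), PIP2;7 by -1.89 and PIP1;2 by -1.29, which was not called without smn2 4 h run 918 (edgeR adjusted p = 0.0638). PIP2;8, with 6.51 and 6.17 CPM at 4 h against 6.45 and 6.82 CPM at 0 h, did not follow.

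Cell wall loosening genes fell in part. Of 22 expansins tested 8 fell (1 stable) and 0 rose, and 3, 3 and 4 fell without smn2 4 h run 910, 4 h run 918 and 0 h run 910. EXPA4, the stable one, had 15.2 and 15.4 CPM at 4 h, against 41.3 and 34.6 CPM at 0 h (-1.31 ± 0.20). Of 28 xyloglucan endotransglucosylases tested 7 fell (3 stable) and 2 rose, with a median of -0.58, and 4 and 3 fell without smn2 4 h run 910 and 4 h run 918. XTH9 had 32.6 and 35.4 CPM at 4 h, against 78.3 and 155 CPM at 0 h (-1.77 ± 0.29), and XTH6 fell by 1.99. The 2 that rose, XTH18 (1.22) and XTH30 (0.90), lost their calls without smn2 4 h run 918 (edgeR adjusted p 0.107 and 0.0719), and XTH18 also without 0 h run 918 (0.0657). None of the 8 cellulose synthases was called by edgeR, 3 having an unadjusted p below 0.05; CESA1 had 293 and 324 CPM at 4 h, against 493 and 502 CPM at 0 h (-0.69 ± 0.22, edgeR adjusted p = 0.0551, 0.0323 with the block, and DESeq2 adjusted p = 0.0227).

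Auxin genes fell in part, where 8.88% of all loci tested were lower and 12.6% higher. The GH3 genes, which conjugate auxin and other hormones, split: GH3.6 had 14.0 and 13.0 CPM at 4 h, against 66.5 and 86.5 CPM at 0 h (-2.50 ± 0.25), GH3.5 and GH3.17 fell by 2.19 and 1.97, and GH3.2 had 43.8 and 42.0 CPM at 4 h, against 4.02 and 6.67 CPM at 0 h (3.04 ± 0.34). Of the 17 tested in that list, which also holds auxin transport and perception, 6 fell and 1 rose, and 3 fell without smn2 4 h run 918 or 0 h run 910. Of 19 Aux/IAA repressors tested 5 fell and 1 rose, with 2 lower without smn2 4 h run 918. AXR3 had 5.53 and 3.896 CPM at 4 h, against 19.2 and 12.4 CPM at 0 h (-1.74 ± 0.32), and IAA8 fell by 1.26. IAA10 rose by 1.57 and lost its call without smn2 4 h run 910 (edgeR adjusted p = 0.0859). Of 23 brassinosteroid and gibberellin genes 5 fell, none stable, with 2, 1 and 3 lower without smn2 4 h run 910, 4 h run 918 and 0 h run 918. Of 19 cell cycle genes tested 2 fell, or 1 with DESeq2, which is near the share of all loci called lower (8.88%). The stable one was CYCD3;1, a cyclin that drives entry into the cycle, at 9.01 and 9.90 CPM at 4 h against 30.7 and 20.5 CPM at 0 h (-1.45 ± 0.27).

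Ribosome biogenesis genes went the other way from the growth lists above, with 7 of 10 higher (6 stable), 0 lower and a median of 1.26. Nucleolin NUC-L1 had 1023 and 1054 CPM at 4 h, against 273 and 290 CPM at 0 h (1.88 ± 0.23), and APUM24, PES and NOP56 rose by 1.86, 1.40 and 1.37. FIB2, which was not called on gene reads (-0.13 ± 0.43), had 20% of its reads uniquely placed and changed by 2.13 on exon reads alone and by 2.04 on uniquely placed reads alone.

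Of 25 nitrogen uptake and assimilation genes tested 12 rose (7 stable) and 4 fell, with a median of 0.77, and 7 rose without smn2 0 h run 910. The nitrate reductase gene NIA2 had 1174 and 1026 CPM at 4 h, against 336 and 354 CPM at 0 h (1.67 ± 0.24), and the nitrate transport genes NRT1.8, which overlaps another locus, and NRT3.1 rose by 3.67 and 3.18 (NRT3.1 by 3.89 without smn2 0 h run 918). The ammonium transporter AMT2 rose by 1.94, and AMT1;1, which overlaps another locus, by 2.41 on reads of which 17% were uniquely placed. The 4 lower members, AMT1;2 (-2.34), NRT1.5 (-1.06), GLU1 (-0.94) and GLN2 (-0.75), each lost the call without smn2 4 h run 910 (edgeR adjusted p 0.0562 to 0.161).

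Of 21 genes of raffinose synthesis and sugar starvation tested, 9 fell (5 stable) and 1 rose (DIN11), with a median of -1.09, and 5 fell without smn2 4 h run 918. TPS8, a regulatory trehalose phosphate synthase family gene, had 64.2 and 35.1 CPM at 4 h, against 197 and 338 CPM at 0 h (-2.42 ± 0.41). SEN1, a starvation marker, had 4.23 and 4.71 CPM at 4 h, against 13.9 and 47.3 CPM at 0 h (-2.76 ± 0.56), with -3.41 and -1.64 without smn2 0 h runs 910 and 918 and no call without 4 h run 910 (edgeR adjusted p = 0.0664) or 4 h run 918 (0.053). GolS4, which overlaps another locus, fell by 2.31. Abscisic acid, drought and cold genes split by role, with 9 of 22 tested lower (2 stable), 4 higher (4 stable) and a median of -1.46. All 4 that rose were receptors or a catabolic enzyme of abscisic acid: PYL6 had 83.9 and 51.9 CPM at 4 h, against 1.76 and 1.82 CPM at 0 h (5.24 ± 0.33), and PYL5, PYL4 and the hydroxylase gene CYP707A3 rose by 2.57, 1.68 and 1.90. NCED3, the limiting step of synthesis, had 2.604 and 3.41 CPM at 4 h, against 10.6 and 27.7 CPM at 0 h (-2.67 ± 0.47, and -1.84 without smn2 0 h run 918), and the transcription factor gene ABF3 had 15.7 and 11.5 CPM at 4 h, against 81.0 and 71.7 CPM at 0 h (-2.48 ± 0.21). Without smn2 4 h run 910, 4 h run 918 and 0 h run 918, 4, 2 and 4 were lower.

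Of 22 clock genes 3 fell, RVE1, LNK1 and RVE4, none stable, and 0 rose, against 8.88% of all loci lower and 12.6% higher. With the run as a block 5 were higher and 7 lower, 5 and 5 without smn2 0 h run 918, and 0 were lower without smn2 4 h run 918 or 0 h run 910. RVE1 was also lost without 4 h run 910 (edgeR adjusted p = 0.0999). The morning genes CCA1 and LHY had 12.7 and 2.43 CPM and 4.45 and 0.649 CPM at 4 h, against 79.1 and 18.5 CPM and 75.0 and 8.64 CPM at 0 h. Both were lower at 4 h within each run, and the runs differed at 0 h. CCA1 was called with the block (edgeR adjusted p = 0.000215) and not without it (0.117), and LHY likewise (0.00327 and 0.0678). The evening gene TOC1 had 54.8 and 92.8 CPM at 4 h, against 17.2 and 59.3 CPM at 0 h. The part of time of day in the pathway changes was not tested. Of 5 touch and early stress genes 1 rose, or 3 without smn2 0 h run 918, and 2 fell without 0 h run 910. The 1 called was ZAT10 (3.21 ± 0.53, and 3.88 without smn2 0 h run 918). TCH3 was called with the block (edgeR adjusted p = 0.0397) and not without it (0.169). TCH4 had 29.8 and 18.0 CPM at 4 h, against 29.5 and 139 CPM at 0 h.

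Of the 14 genes of nuclear RNA surveillance, the process in which HEN2 acts, 3 rose and 0 fell, with a median of 0.49. Of all loci, 12.6% were higher and 8.88% lower. In WT, 4 of the 14 rose and 0 fell, with a median of 0.67. Among the 3 that rose in smn2, RRP4, a core exosome subunit gene, had 10.9 and 16.7 CPM at 4 h, against 5.94 and 3.79 CPM at 0 h (1.46 ± 0.43). The others were AT5G38890 (1.28) and AT1G60080 (1.18). None was stable, and 0, 0, 0 and 1 were higher without smn2 4 h run 910, 4 h run 918, 0 h run 910 and 0 h run 918.

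Intron reads gave a second readout of the same libraries, since they can come from unspliced RNA. They made up 2.43% and 2.66% of reads at loci with exons in the smn2 4 h libraries and 2.74% in each smn2 0 h library. Of 4162 loci with enough intron reads, 202 were higher (4.85%) and 93 lower (2.23%). On gene reads, 192 of the 202 were also called higher, 73 of the 93 also lower, and 0 in the opposite direction. Gene reads include the intron reads, so exon reads were set beside them too: of the 201 intron-higher loci tested on exon reads 184 were higher, and of the 93 intron-lower loci 72 were lower. Their median log2 changes were 2.95 on intron and 2.48 on exon reads for the higher loci, and -2.41 and -1.68 for the lower; these loci were chosen on their intron reads. In the other direction, 663 loci called higher on exon reads were tested on intron reads, of which 184 were called and 616 had the same sign, and of 539 called lower, 72 were called and 491 had the same sign. Chosen on exon reads, the medians were 1.44 on intron and 1.405 on exon reads for the higher loci, and -1.03 and -1.13 for the lower.

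FRK1 had 106 and 39 intron reads at 4 h, against 0 in both 0 h libraries. PRX71 had 44 and 17, DREB2C, a stress transcription factor gene, 21 and 8, and PP2-B10, a phloem lectin family gene, 20 and 9 at 4 h, all against 0 at 0 h. PP2-B10 was not called on gene reads, except with the block (edgeR adjusted p = 0.0755, and 0.0444 with the block). In the other direction, AT2G32880 had 0 and 0 intron reads at 4 h, against 19 and 13 at 0 h, and PYD4 had 0 and 0, against 13 and 13. JAL22, a jacalin lectin gene, had 0 and 1, against 39 and 16, and AT3G52720, a carbonic anhydrase gene, had 0 and 1, against 34 and 1, so that its difference rests on 1 library of run 910. Loci lower on intron reads but not called on gene reads included the antenna and photosystem genes LHCB4.1, LHCB2.2, LHCA1, LHCA4 and PSAL. These 5 were chosen after their values were seen.

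**Figure D5:**
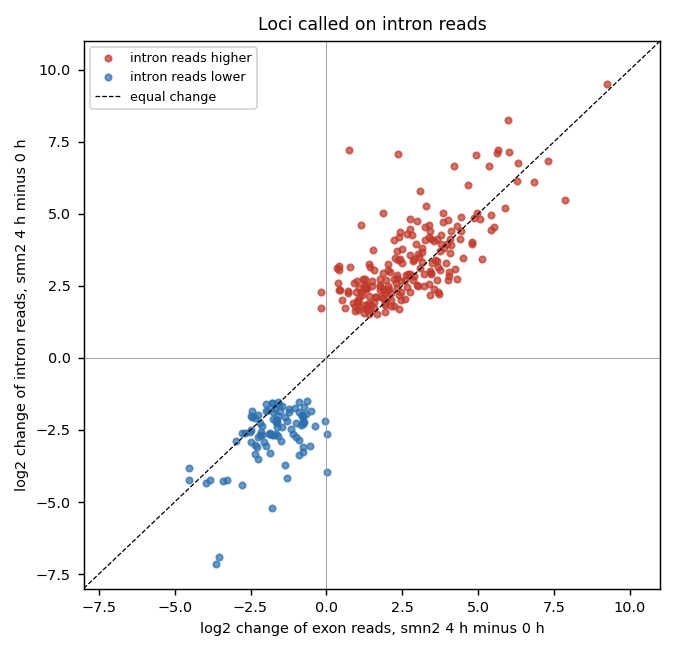
Log2 change of intron reads (y axis) against that of exon reads (x axis), smn2 4 h minus smn2 0 h, for loci called on intron reads, in red where higher (201 with an exon test) and blue where lower (93), with a dashed line of equal change. Medians were 2.95 on intron and 2.48 on exon reads for the higher loci, and -2.41 and -1.68 for the lower, which were chosen on intron reads. For loci chosen on exon reads they were 1.44 and 1.405, and -1.03 and -1.13.

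In WT, the same contrast called 1989 loci higher (10.1%) and 1289 lower (6.56%), with a median of -0.01. The test of the difference between the smn2 and the WT change called 0 loci with edgeR at adjusted p below 0.05, while 847 loci (4.31%) had an unadjusted p below 0.05, and DESeq2 called 26 (0.132%), of which 23 had a higher and 3 a lower change in smn2. Log2 changes of FRK1 were 9.30 in smn2 and 6.75 in WT, of PROPEP3 7.33 and 5.52, of CYP71A12 6.32 and 3.196, of PAL1 2.28 and 0.71 and of WAK1 1.91 and 0.18, each with an unadjusted edgeR p below 0.05 for the difference. None of these differences passed the adjusted threshold with edgeR, while that of CYP71A12 passed it with DESeq2. All were towards a larger change in smn2, but these genes were picked from the 847 loci. Their shared direction does not describe all 847. Changes at UGT76E12 and AT4G16680 went the other way, at 2.59 and 1.73 in smn2 and 5.89 and 4.18 in WT. Both overlap another locus, and 1.99% of reads at UGT76E12 were uniquely placed. FRK1 had only 5 and 2 reads at smn2 0 h. Its 4 h levels overlapped, at 335 and 154 CPM in smn2 and 198 and 139 CPM in WT. At BXL1 the log2 changes were -4.50 in smn2 and -4.30 in WT, at ICS2 -3.87 and -3.71 and at GolS4 -2.31 and -2.31.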

How the data were processed

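Poly(A) RNA of whole seedlings was sequenced in 8 libraries, 2 per group, per the labels. The authors deposited 1 table with, per the file headers, read counts per locus (gene, exon, intron and unique reads), RPKM and coordinates. RPKM was deposited by the authors and not used in tests. Values were on TAIR10, per the submitters' processing notes; which aligner, annotation release and strand setting were used is not given in the sources used here. Samples were grouped by title.

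Gene read counts as deposited were fitted with edgeR 4.0.16 in R 4.3.3 (TMM, filterByExpr, quasi-likelihood test, all 8 libraries in 1 fit, 4 residual degrees of freedom, common biological coefficient of variation 0.229), with Benjamini-Hochberg adjustment over all 19649 loci tested and a threshold of 0.05. Standard errors are the log2 change divided by the root of the F statistic. Alternatives were DESeq2 1.42.0, other size factors, no filter, a test against a fold of 1.5, exon or unique reads only, smn2 libraries only, no ribosomal RNA loci, the run as a block and leaving out each library. The code was tested on simulated data. Floors of 3 counts correspond to 0.251 to 0.487 CPM in the smn2 libraries; floors and the counting interval cover counting error only. The replicates are labelled biological, and how they were grown is not given in the sources used here.

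The numbers 910 and 918 each mark 1 Ion Proton run, per the file headers, so they pair libraries by run; the deviations of the 910 libraries from their group means correlated at 0.135 between smn2 4 h and smn2 0 h, and at 0.0477 to 0.452 between the other pairs of groups.

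The genes and the 50 lists were chosen with earlier results of these data known. Named genes were HEN2, FRK1, FLS2 and PROPEP3, the 12 largest stable changes each way with at least 5 CPM and 1 read in each smn2 library, the 5 most abundant loci with 0 reads in 1 group, and per list up to 4 stable members, called members where under 2 were stable, and members against the majority. Further members were named, after their values were seen, for their role in a pathway. From the lists, 4 loci were removed after values were seen, because their annotated product differs. RefSeq annotation matched 28009 of 28642 loci. A result of 1 list member is not reported here.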

Additional observations from a re-analysis of the deposited data

Results flagged for a closer look

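At 8 named genes DESeq2 gave an adjusted p below 0.05 for the difference between the smn2 and the WT change, while edgeR did not. As smn2 minus WT on the log2 scale, the difference was 2.06 at AT2G44370, 1.98 at PRX71, 3.18 at PR2, 3.14 at CYP71A12, 1.95 at FLOT1, 2.34 at AT5G25260, a flotillin family gene, and 3.79 at DIN2, a beta-glucosidase gene induced by darkness. At RLP2 it was -3.81. PR2 changed by 2.22 in smn2 and -0.96 in WT, and RLP2 by -1.61 in smn2 and 2.15 in WT. Both had opposite signs, but the WT change of PR2 was not called (edgeR adjusted p = 0.194). The smn2 call was not stable at either gene. No cause of these differences was tested.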

How the results depend on the processing

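The higher and lower counts of smn2 loci kept within 1.5 times of 2479 and 1745 under every scaling, filter and read choice tried and with the run as a block. Against a fold of 1.5 they were 1388 and 680. Leaving out each library in turn gave 1467 to 2370 higher and 601 to 1649 lower. On intron reads, DESeq2 gave 125 higher and 39 lower, the fold of 1.5 gave 57 lower, the block gave 160 lower, and leaving out each library gave 113 to 246 higher and 46 to 125 lower. The difference between smn2 and WT was called at 148 loci higher and 37 lower without the low-count filter and at 23 and 3 with DESeq2, and at 0 whichever library was left out. NRT2.1, at -0.38 and not called, ranged over -1.29 to 1.79 as libraries were left out, the last without smn2 0 h replicate 918, and FIB2, at -0.13, was at 2.13 on exon reads and 2.04 on unique reads; the cause was not tested. Of 885 log2 changes of listed and named loci, 144, 138, 105 and 81 lost the call without smn2 4 h run 910, 4 h run 918, 0 h run 910 and 0 h run 918, and 20 with DESeq2. The replicate block added 62 calls and ended 1. It gave 1 lower gene, against 0, in the jasmonate synthesis, jasmonate output, phenylpropanoid and cellulose synthase lists. In the sugar starvation and touch lists it gave 2 higher, against 1. Counts of other lists changed too, and not all are given. Higher were 19 cysteine-rich receptor-like kinases, against 17, 9 salicylic acid response genes, against 7, and 11 phenylpropanoid genes, against 9. Brassinosteroid and gibberellin genes gave 7 lower, against 5. Of the loci called, 1888 higher and 1288 lower changed at least 2-fold.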

Other observations

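Genes of a metabolic cluster fell together. The thalianol cluster on chromosome 5, which makes a root triterpene, was examined because THAS1 and CYP705A5 were among the 12 largest decreases. THAS1, the cyclase, had 4.99 and 8.93 CPM in the smn2 4 h libraries, against 91.6 and 124 CPM in the smn2 0 h libraries (-3.98 ± 0.35 on the log2 scale), CYP705A5 had 4.23 and 10.4 CPM, against 121 and 93.5 CPM (-3.91 ± 0.50, and -4.66 without smn2 4 h run 918), and CYP708A2 had 11.2 and 16.6 CPM, against 95.6 and 79.0 CPM (-2.67 ± 0.34). The acyltransferase gene AT5G47980 changed by -2.64 (-1.70 without smn2 0 h run 910, on 224 and 45 reads at 0 h) and lost its call without smn2 4 h run 910 (edgeR adjusted p = 0.0927) or 0 h run 910 (0.0571). Of the marneral cluster on the same chromosome, CYP705A12 is given above, CYP71A16 had 1 and 0 reads at 4 h, against 50 and 3 at 0 h, and MRN1 was too low to test. These clusters are known to be active in roots. The summed level of root markers, nearly all of it PYK10, was lower at 4 h as well, but no root marker call was stable. The part of root content in the result was not tested.

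Across 8 families taken from the annotated products after values were seen, 11 of 18 tested berberine bridge proteins were higher and 1 lower (median log2 change 2.26), where 12.6% of all loci were higher and 8.88% lower, as were 11 and 1 of 19 chitinases (1.87; 7 higher without smn2 4 h run 918). Peroxidases gave 15 higher and 5 lower of 54 (0.31), C1 domain proteins 13 and 6 of 91 (0.25; 0 of the 6 stable) and MLO proteins 3 and 1 of 10 (0.47; 2 higher without smn2 4 h run 910). Glycosyl hydrolases gave 9 higher and 16 lower of 70 (-0.46; 5 higher without smn2 4 h run 910), SAUR-like proteins 4 and 3 of 43 (-0.65; 2 higher without smn2 4 h run 910 or 0 h run 918), and the 1 protein that matched the lipid transfer pattern, AT4G22470, was higher.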
